A study of Mus musculus with 29 samples.

Results

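A set of genes that mark monoamine neurons or early brain regions, and that are sparse in cortex, were followed through every library of the series. They were the 10 members Slc6a4, Tph2, Chrna6, Slc6a3, Th, En1, Lhx1, Lhx9, Barhl1 and Irx3, out of 25746 genes in the deposited count tables, and each was found by its Ensembl ID. The members were chosen by symbol with the read counts and group comparisons of these same libraries known, and which of those values weighed in the choice is not recorded, so their levels and differences below are a description and carry no test. RNA sequencing was performed on cortical tissue, with 29 libraries in 8 groups. WT mice (C57BL/6J) were sampled non-stroked (4 libraries), at 21 dpi after a photothrombotic stroke of the right sensorimotor cortex (4 libraries), and at 21 dpi with tacrolimus, a calcineurin inhibitor given from a subcutaneous osmotic pump, started at 0 dpi (WT-Tacr acute, 3 libraries) or at 7 dpi (WT-Tacr delayed, 5 libraries). Rag2-/- mice, which form no mature T and B cells, were sampled non-stroked (3 libraries) and stroked (3 libraries), and so were NSG mice, which lack NK cells as well and carry a NOD background (4 and 3 libraries). All mice were 3 months old and of both sexes. Rag2-/- and NSG animals were bred in house whereas WT animals were purchased, so strain and source cannot be told apart. For the non-stroked samples the methods name the side opposite to the lesion while the results text names naïve animals. The methods list fewer animals for RNA sequencing than there are tacrolimus and NSG libraries, and the labels tie no library to an animal, so some libraries may share 1 and p-values may then be too small. There were no non-stroked mice on tacrolimus among the samples, so both tacrolimus groups were compared with the same 4 non-stroked WT libraries as untreated stroke.

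Serotonin is made in the raphe nuclei of the midbrain and hindbrain, where Tph2 catalyses the rate-limiting step and Slc6a4 takes the transmitter back up. Dopamine and noradrenaline synthesis starts with Th, and Slc6a3 is the dopamine transporter of midbrain neurons. Both systems send axons into the cortex, but their cell bodies lie elsewhere, and the olfactory bulb holds a further population of neurons with Th. Chrna6 encodes a nicotinic acetylcholine receptor subunit of catecholaminergic and visual neurons that assembles with the product of Chrnb3. The transcription factor En1 is required for the midbrain and anterior hindbrain. Lhx1 and Lhx9 are LIM homeobox factors of diencephalic, midbrain and hindbrain neurons, Barhl1 is a homeobox factor of diencephalon, cerebellum and hindbrain, and Irx3 is an Iroquois factor of the diencephalon, midbrain and hindbrain.

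On GRCm38 (GENCODE M21) Slc6a4 lies on chromosome 11 (76998603 to 77032340, plus strand), Tph2 on chromosome 10 (115078641 to 115185022, minus strand), Slc6a3 on chromosome 13 (73536747 to 73578672, plus strand) and Th on chromosome 7 (142892752 to 142931128, minus strand). Chrna6 (27403212 to 27413944) and Irx3 (91798525 to 91802067) lie on the minus strand of chromosome 8, Lhx9 (138825186 to 138848577, minus strand) and En1 (120602418 to 120607992, plus strand) on chromosome 1, Lhx1 on chromosome 11 (84518284 to 84525535, minus strand) and Barhl1 on chromosome 2 (28907679 to 28916668, minus strand). All 10 are protein-coding, and values are counts over the whole gene. The upstream sequences of the 4 monoamine synthesis and transporter genes are shown. Slc6a4 and Tph2 were both highest in 1 library, and Th and Slc6a3 were both high in several. Over the 29 libraries Slc6a4 and Tph2 did not vary together (Spearman rho 0.042). Each holds 250 bases before and 50 bases after the transcription start in RefSeq on GRCm38.p6, and 9 of the 10 members had such an entry. Short motifs were searched on both strands, the cAMP response element TGACGTCA, the NBRE letters AAGGTCA bound by NR4A factors and the ETS core GGAAGT. A single match was found among the members. The cAMP response element stands in Th, 45 bases before the start and marked in capitals, and 1.79% of 32851 promoters of the same length hold it. AAGGTCA is in 4.72% and GGAAGT in 23.8% of them.
Slc6a4 (chr11:76998347-76998646, plus strand): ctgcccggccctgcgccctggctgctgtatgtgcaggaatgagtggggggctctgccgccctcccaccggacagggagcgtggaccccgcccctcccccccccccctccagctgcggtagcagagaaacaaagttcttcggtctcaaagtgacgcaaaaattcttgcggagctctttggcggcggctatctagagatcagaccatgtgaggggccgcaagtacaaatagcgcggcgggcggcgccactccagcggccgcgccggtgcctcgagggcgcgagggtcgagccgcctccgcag
Tph2 (chr10:115184973-115185272, minus strand): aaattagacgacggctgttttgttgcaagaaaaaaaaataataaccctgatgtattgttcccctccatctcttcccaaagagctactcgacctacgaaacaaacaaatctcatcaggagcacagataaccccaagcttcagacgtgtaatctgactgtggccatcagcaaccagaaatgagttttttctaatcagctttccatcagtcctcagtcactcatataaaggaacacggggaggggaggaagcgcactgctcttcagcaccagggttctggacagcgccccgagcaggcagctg
Slc6a3 (chr13:73536497-73536796, plus strand): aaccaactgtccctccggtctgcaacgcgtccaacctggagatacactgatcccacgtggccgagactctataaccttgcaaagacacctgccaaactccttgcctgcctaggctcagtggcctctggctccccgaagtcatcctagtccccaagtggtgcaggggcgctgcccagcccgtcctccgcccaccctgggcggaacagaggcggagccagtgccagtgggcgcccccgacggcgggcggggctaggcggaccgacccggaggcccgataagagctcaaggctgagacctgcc
Th (chr7:142899946-142900245, minus strand): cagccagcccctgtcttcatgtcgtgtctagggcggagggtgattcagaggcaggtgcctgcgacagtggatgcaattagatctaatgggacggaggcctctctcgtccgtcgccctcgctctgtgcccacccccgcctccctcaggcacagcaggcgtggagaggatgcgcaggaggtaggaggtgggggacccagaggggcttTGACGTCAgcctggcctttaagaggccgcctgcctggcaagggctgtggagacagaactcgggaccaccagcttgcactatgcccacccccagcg
The other 3 sequences hold none of the motifs in these windows.

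Total counts ran from 17789044 to 43403413 per library. The samples form 2 cohorts by their labels, Imm2 (20 samples, all non-stroked ones among them) with a median of 37223696 counts and TF (9 samples) with a median of 23155303. All delayed tacrolimus samples were TF, so this treatment and the cohort cannot be told apart there. Levels are given as CPM, the count scaled by the normalised library size to a common total. A count of 0 allowed up to 3 counts, which was 0.0730 to 0.149 CPM depending on the library and covers counting error only. All 12 cortex markers had counts in every library, with summed levels of 1164 to 3047 CPM, and these were lowest in the delayed tacrolimus group.

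A single library stood apart in these genes. Replicate 3 of the non-stroked WT mice held the highest level of all 29 libraries in 8 of the 10 members. Th was the exception at rank 9 and Lhx9 at rank 4. This library held 83.9% of all Slc6a4 counts of the series, 69.4% of Barhl1, 64.2% of En1, 41.9% of Lhx1 and 41.3% of Tph2 counts. Its total of 38298061 counts was close to the 38428427 to 40440384 counts of its group mates, and its 12 cortex markers summed to 2612 CPM, the lowest of its group, whose other libraries had 2795, 2941 and 2952 CPM. Because it is 1 of the 4 controls of all 3 WT stroke comparisons, the members called in these comparisons are given with and without it. So are the log2 fold changes of members that are quoted for these comparisons from the fit of all samples.

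**Figure D1:**
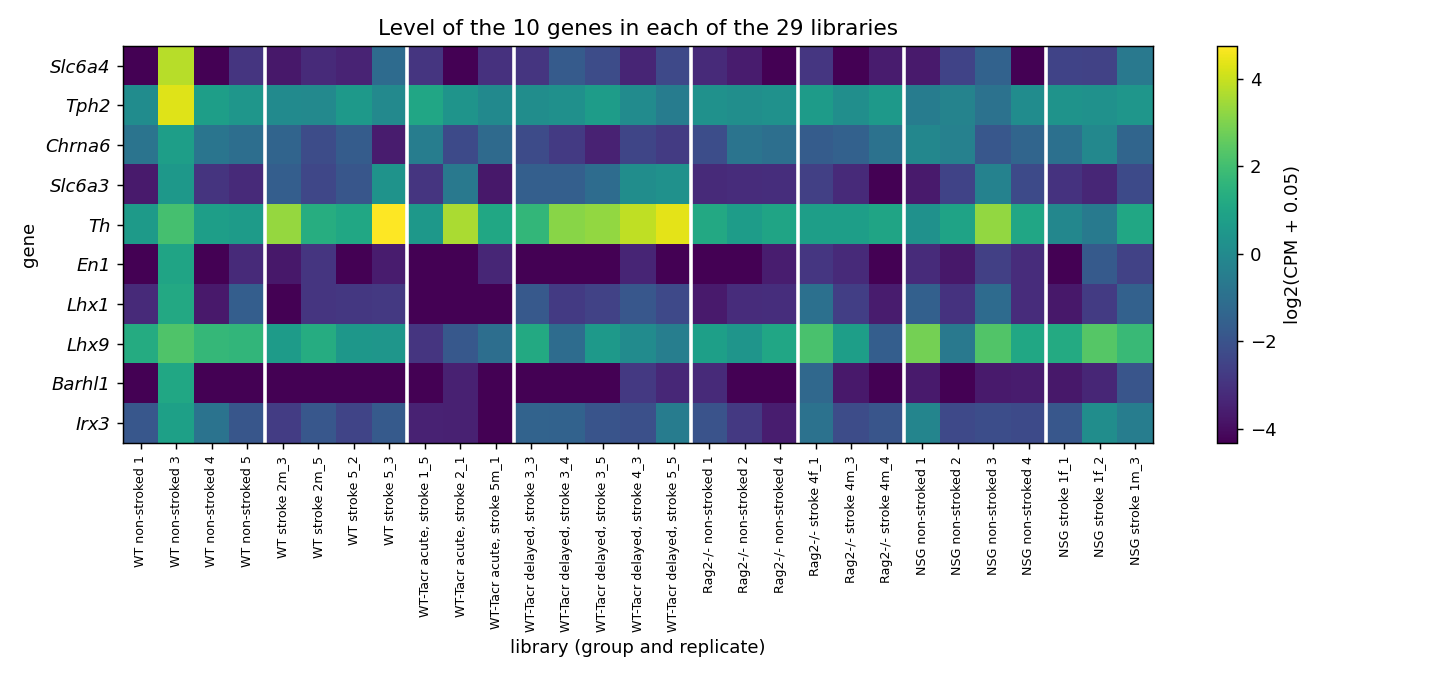
Level of each gene (rows) in each library (columns, ordered by group), coloured as log2(CPM + 0.05). The column of WT non-stroked 3 holds the highest value of 8 of the 10 rows, while Th is highest in 2 WT stroke, 1 acute and 4 delayed tacrolimus libraries and in NSG non-stroked 3.

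Of the serotonin genes, Slc6a4 had few or no counts and Tph2 a low level in the libraries other than this one. Slc6a4 counts in non-stroked WT mice were 0, 502, 0 and 3, and Tph2 counts were 36, 721, 62 and 48. The second value of each belongs to replicate 3, and no other library of the series had more than 19 counts of Slc6a4 or 62 of Tph2. After stroke in WT mice Slc6a4 had 1, 2, 1 and 13 counts and Tph2 had 38, 33, 33 and 30. These values lay inside the range of the non-stroked group for Slc6a4, and for Tph2 3 of the 4 stroked libraries lay below its lowest level of 1.025 CPM. Slc6a4 had 0 to 3 counts with acute and 1 to 8 counts with delayed tacrolimus, 0 to 2 counts in non-stroked and 0 to 3 counts in stroked Rag2-/- mice, and 0 to 11 and 5 to 19 counts in non-stroked and stroked NSG mice. In CPM, Slc6a4 reached 13.7 in replicate 3 against at most 0.581 elsewhere (NSG stroke 1m_3), a ratio of 23.5, and Tph2 reached 19.6 against at most 1.998 (acute 1_5), a ratio of 9.82. Per kilobase of exon, where genes can be compared, replicate 3 had 6.81 RPKM of Tph2 and 3.01 RPKM of Slc6a4, and the median of the other 28 libraries was 0.382 and 0.0143 RPKM.

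The group means followed that library. Slc6a4 averaged 3.43 ± 6.81 CPM in non-stroked WT mice (SD, n = 4) and 0.0275 ± 0.0476 CPM without replicate 3 (SD, n = 3). With all samples the log2 fold change after stroke in WT mice was -4.68 (SE 1.35), and without replicate 3 it was 2.10 (SE 1.26). For Tph2 it was -2.49 (SE 0.62) with and -0.35 (SE 0.28) without replicate 3. The same held for delayed tacrolimus, with -4.54 (SE 1.26) and 2.23 (SE 1.24) for Slc6a4 and -2.44 (SE 0.57) and -0.29 (SE 0.27) for Tph2. Between non-stroked NSG and WT mice Tph2 counts of 22, 31, 17 and 33 lay below all 4 WT libraries in CPM, by a narrow margin of 1.021 against 1.025 CPM. Over all genes 11.9% were lower without overlap here, and the log2 fold change of Tph2 was -3.01 (SE 0.63) with and -0.86 (SE 0.28) without replicate 3. Stroked NSG mice had 43 to 48 Tph2 counts, above the non-stroked NSG mice without overlap (log2 fold change 0.75, SE 0.68), and 13.6% of all genes were higher without overlap in this comparison.

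**Figure D2:**
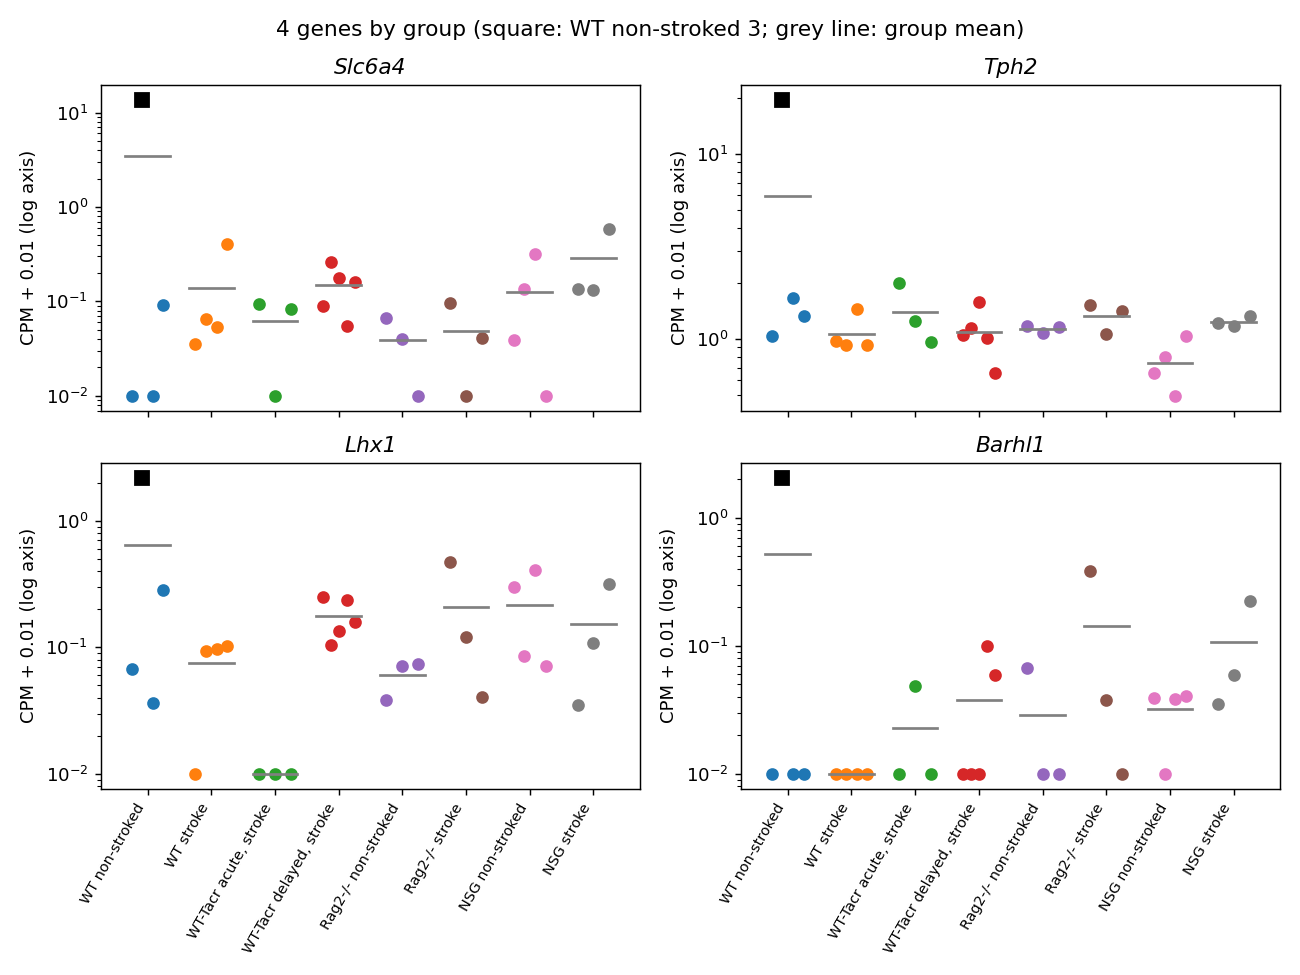
CPM + 0.01 (log axis) of Slc6a4, Tph2, Lhx1 and Barhl1 in each library by group, with the group mean as a grey line and WT non-stroked 3 as a black square. In each panel the square lies above all other libraries, and for Slc6a4 and Barhl1 it alone lifts the mean of its group, since its 3 group mates have 0 to 3 counts and no counts.

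Some other genes of serotonin neurons were also highest in this library, 5 of the 11 on their list. Fev, the transcription factor that defines serotonin neurons, had 54 counts in replicate 3 and 0 to 2 counts in every other library. Gata3, which raphe neurons need, had 179 counts in replicate 3, 0 in the other non-stroked WT mice and at most 26 elsewhere. Slc18a2, the vesicular monoamine transporter, had 333 counts there and 2 to 75 elsewhere, and Ddc, the decarboxylase of all monoamines, had 453 counts against 92 to 232. The 11 genes of this list summed to 83.0 CPM in replicate 3 and to 45.7 to 64.9 CPM in the other 28 libraries. The noradrenergic list of 6 genes, which shares Ddc and Slc18a2 with it, summed to 22.0 against 3.62 to 9.42 CPM. Dbh, the noradrenaline-making enzyme that defines this list, had 16 counts in replicate 3 and 4 to 30 elsewhere.

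The patterning members En1, Lhx1, Barhl1 and Irx3 were also highest in replicate 3. En1 had 70 counts there and 0 to 10 in all others, with 13 libraries at 0. Barhl1 had 75 counts there and 0 to 13 in all others, with 16 libraries at 0. It was at 0 in all stroked WT libraries, at least 5.35-fold below the mean of the 4 non-stroked WT libraries, and the 3 non-stroked WT libraries other than replicate 3 were at 0 as well. En1 and Barhl1 did not pass the filter on low counts, so only 8 of the 10 members entered the fit. Lhx1 had 80 counts in replicate 3 against 2, 1 and 10 in its group mates, and Irx3 had 63 against 8, 19 and 8. The second highest values were Rag2-/- stroke 4f_1 for Lhx1 and Barhl1 (16 and 13 counts) and NSG stroke 1f_2 for En1 and Irx3 (10 and 42 counts). In CPM replicate 3 exceeded them 4.74-fold for Lhx1, 5.47-fold for Barhl1, 7.71-fold for En1 and 1.65-fold for Irx3.

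Of 27 other patterning genes, 22 were highest in replicate 3, and the list summed to 61.2 CPM there against 5.87 to 37.5 CPM in the other 28 libraries. Pax7 and Pax5, factors of the dorsal midbrain and of the midbrain and hindbrain border, had 4.43 and 3.59 CPM in replicate 3, which was 5.95 and 9.05 times the next library. Mab21l2 had 4.11 CPM (7.90 times), Sox14 1.69 CPM (4.66 times) and Pou4f2, a factor of tectal neurons and retinal ganglion cells, 1.55 CPM (4.50 times). En2, the paralogue of En1, had 71 counts there and 9 to 50 elsewhere. Lhx5 had 50 counts there and 0 to 19 elsewhere, and Barhl2 had 59 there and 0 to 52 elsewhere. Of 9 hindbrain markers, 3 had a count in replicate 3, and almost all of the list's 3.45 CPM came from the glycine transporter Slc6a5 (125 counts, 4.27 times the next library), while the hindbrain factors Hoxb2 and Hoxb3 were at 0 there. The thalamus list summed to 185 CPM, within the 104 to 375 CPM of the others.

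Across all genes with at least 20 counts in 1 library, 14 were at least 4 times higher in replicate 3 than in every other library, and every other library had 0 to 5 such genes. This rule was chosen after the values were seen, and so were Pax7, Sox14, Pou4f2, C1ql4 and Dbh as genes to name. The 14 comprised 5 members (Tph2, Slc6a4, Lhx1, Barhl1 and En1), 7 genes of the lists of serotonergic, noradrenergic, dopaminergic and patterning genes, Slc6a5, and C1ql4, which is on none of the lists. The part of these other subcortical genes in the members' differences was not tested.

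Th and Slc6a3, the dopamine genes, were high in another set of libraries, though Slc6a3 was highest of all in replicate 3. Of the 13 other genes on the dopaminergic list, 5 were highest in replicate 3 as well. That list summed to 132 CPM there, within the 78.55 to 227 CPM of the other 28 libraries. Th was 1.48, 4.16, 1.64 and 1.51 CPM in the 4 non-stroked WT libraries, the second being replicate 3. It was 9.82, 2.47, 2.09 and 26.8 CPM in stroked WT mice and 3.18, 8.66, 9.72, 14.6 and 20.6 CPM with delayed tacrolimus. Both of these groups overlapped the non-stroked WT group. Of the 4 stroked WT libraries 2 were above replicate 3, and the other 2 lay between it and its group mates. With acute tacrolimus Th was 1.37, 12.2 and 2.07 CPM, so that 1 of 3 libraries was high. In Rag2-/- mice it was 1.58 to 2.15 CPM without and 1.64 to 1.90 CPM with stroke. In NSG mice it was 1.14 to 9.61 CPM without stroke, where replicate 3 was the high one, and 0.618 to 2.05 CPM with stroke. The order of the group means was delayed tacrolimus, WT stroke, acute tacrolimus, non-stroked NSG, non-stroked WT, non-stroked Rag2-/-, Rag2-/- stroke and NSG stroke, and every neighbouring pair overlapped.

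Slc6a3 was high in much the same libraries but at far lower counts. It had 11, 5, 5 and 40 counts in stroked WT mice and 7, 9, 10, 23 and 23 with delayed tacrolimus, against 1, 50, 3 and 2 in non-stroked WT mice. The stroked WT and delayed tacrolimus groups both overlapped the non-stroked WT group, since replicate 3 lay above all of their libraries. Its 3 group mates lay below them, at 3 against 5 counts at the closest. How many of all genes separate from these 3 controls was not computed, so nothing is read from this. The log2 fold change after stroke was 0.28 (SE 0.91) with replicate 3 and 3.003 (SE 1.07) without it, and with delayed tacrolimus 0.68 (SE 0.87) and 3.40 (SE 1.04). For Th it was 2.23 (SE 0.76) and 2.74 (SE 0.87) after stroke, and 2.36 (SE 0.75) and 2.87 (SE 0.86) with delayed tacrolimus. With Imm2 samples only, where stroked WT libraries had 9.82 and 2.47 CPM, the log2 fold change of Th was 1.48 (SE 0.67), and it did not pass. No non-stroked library belongs to TF, whose stroked WT libraries had 2.09 and 26.8 CPM. With the cohort as a covariate, Th had 1.40 (SE 0.80) after stroke and 0.95 (SE 1.03) with delayed tacrolimus.

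Over the 29 libraries Th and Slc6a3 had a Spearman rho of 0.80 (Pearson r 0.86 on log2 CPM), given as a description, since the points share cohorts, dissection and depth. Markers of the olfactory bulb, where Th neurons are resident, moved with both (rho 0.77 for Th and 0.80 for Slc6a3). So did hypothalamus (0.67 and 0.72) and striatum markers (0.58 and 0.63), while cortex markers went the other way (-0.53 and -0.64). The 4 olfactory bulb markers Cdhr1, Doc2g, Tbx21 and Eomes summed to 52.5 to 152 CPM in 8 libraries, and Th was 8.66 to 26.8 CPM in these. They summed to 5.33 to 15.9 CPM in the other 21 libraries, and Th was 0.618 to 4.16 CPM there. The 8 were 2 of 4 stroked WT, 1 of 3 acute tacrolimus, 4 of 5 delayed tacrolimus and 1 of 4 non-stroked NSG libraries, and no Rag2-/- library was among them. In WT stroke 5_3, which was highest in Th, the mitral cell marker Cdhr1 had 2676 counts, Doc2g 1634, Eomes 479 and Tbx21 189. In the 4 non-stroked WT libraries Cdhr1 had 115 to 188 counts, Eomes 10 to 20 and Tbx21 0 to 8. Replicate 3 of the non-stroked WT mice had 4.16 CPM of Th and 1.36 CPM of Slc6a3 with a marker sum of 10.3 CPM. The part of these markers in the Th and Slc6a3 differences was not tested.

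**Figure D3:**
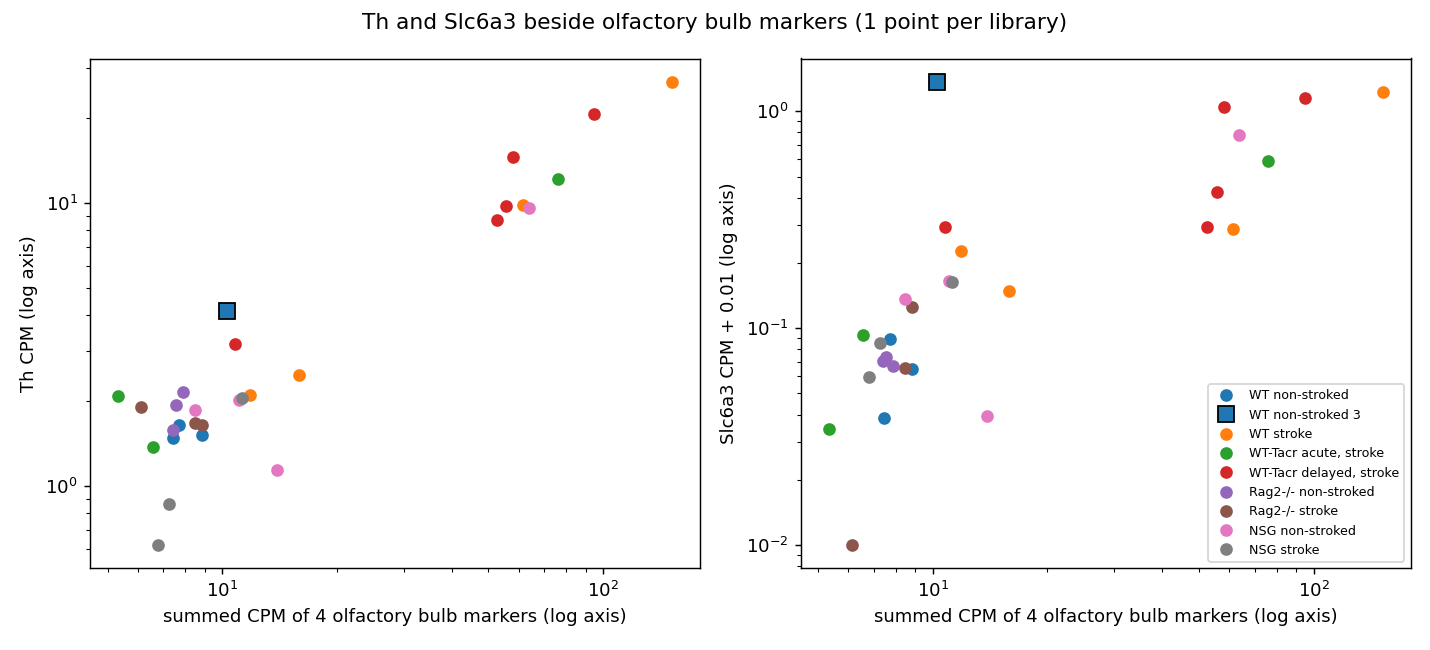
CPM of Th (left) and CPM + 0.01 of Slc6a3 (right) against the summed CPM of 4 olfactory bulb markers, all on log axes, with 1 point per library coloured by group. The 8 libraries with 52.5 to 152 CPM of markers hold the 8 highest Th levels, and WT non-stroked 3 (square) has the highest Slc6a3 level at a low marker sum.

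The genes most like Th by Spearman rho over the 29 libraries were Prss56 (0.87), Cdh4 (0.86) and Gpr174 (0.85). Those most like Slc6a3 were the hypothalamus marker Trh (0.83), Npffr2 (0.82) and Rcan3 (0.82). For Slc6a4 they were Tal1 (0.60), Aifm2 (0.585) and Tlcd2 (0.583), and for Tph2 Cox7a1 (0.68), Egfl6 (0.62) and Bccip (0.60). The dopaminergic list gave a different count from Th after stroke. Of its 13 genes other than the members, 10 were tested, 0 were called higher and 1 lower in WT mice (edgeR), against 6.76% and 0.540% of all genes. Their median log2 fold change was -0.46 against 0.00 over all genes tested, and 0.42 without replicate 3. Pitx3, a defining factor of midbrain dopamine neurons, had 0 to 4 counts in every library.

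Chrna6 was lower in stroked WT mice in every library, whether or not replicate 3 was counted. It had 18, 61, 20 and 16 counts in non-stroked WT mice, 13, 6, 6 and 1 after stroke, and 4, 3, 1, 3 and 2 with delayed tacrolimus. The stroked libraries lay below all 4 controls in CPM in both comparisons. Over all genes 13.4% lay lower without overlap after stroke in WT mice and 27.5% with delayed tacrolimus. With acute tacrolimus it had 16, 4 and 16 counts, which overlapped the controls. The log2 fold change was -1.98 (SE 0.56) after stroke and -1.31 (SE 0.55) without replicate 3, and -2.85 (SE 0.60) and -2.18 (SE 0.59) with delayed tacrolimus. In Rag2-/- and NSG mice the differences after stroke were -0.10 (SE 0.64) and 0.05 (SE 0.55), with 9 to 16 and 11 to 36 counts after stroke.

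Chrnb3, whose product partners that of Chrna6, had higher counts and was tested. It fell in WT mice after stroke (log2 fold change -1.89, SE 0.45, edgeR adjusted p = 0.0037), from 108 to 201 counts in the 4 non-stroked libraries to 24 to 67 in the 4 stroked libraries. The groups did not overlap in CPM, and 13.4% of all genes likewise lay lower without overlap. The call of Chrnb3 held without replicate 3 (-1.76, edgeR adjusted p = 0.0124), with the cohort as a covariate (-1.69, adjusted p = 0.0316) and in Imm2 samples only (-1.63, adjusted p = 0.0408). It also fell with delayed tacrolimus (-2.25, SE 0.44, edgeR adjusted p = 0.000154), where the cohort as a covariate left -1.77 (adjusted p = 0.0999). With acute tacrolimus Chrnb3 had 111, 31 and 150 counts (-0.47, SE 0.46, edgeR adjusted p = 0.534). The Chrnb3 difference was -1.15 (SE 0.50) after stroke in Rag2-/- mice (edgeR adjusted p = 0.172). For NSG mice Chrnb3 gave -0.93 (SE 0.48), which did not pass (edgeR adjusted p = 0.161). Set against the WT response, Chrnb3 in either strain did not pass (edgeR adjusted p = 0.95 for Rag2-/- and 0.534 for NSG).

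Cortex markers were lower in the libraries with little Chrna6. Over the 29 libraries Chrna6 and the summed cortex markers had a Spearman rho of 0.70, and Chrna6 and Th had -0.77, as a description over libraries that share tissue and depth. With olfactory bulb, striatum and hypothalamus markers Chrna6 had a rho of -0.697, -0.646 and -0.625, of similar size. The 12 cortex markers summed to 1464 to 2585 CPM in stroked WT mice and to 1164 to 1732 CPM with delayed tacrolimus, against 2612 to 2952 CPM in non-stroked WT mice. In these bulk samples fewer cells of a type and less RNA per cell cannot be told apart, and the part of the cortex markers in the Chrna6 difference was not tested. The genes most like Chrna6 were Susd5 (rho 0.87), Efcab6 (0.84) and Lynx1 (0.84), a modulator of nicotinic receptors.

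Lhx9 was lowest with acute tacrolimus and, unlike the other patterning members, was not highest in replicate 3. It was 2.33, 4.76, 3.21 and 3.11 CPM in non-stroked WT mice and 1.51, 2.42, 1.35 and 1.31 CPM after stroke. With acute tacrolimus it was 0.0832, 0.232 and 0.438 CPM (2, 6 and 18 counts), and outside this group only Rag2-/- stroke 4m_4 (0.276 CPM) and delayed 3_4 (0.409 CPM) lay below its highest library. With delayed tacrolimus it was 2.25, 0.409, 1.41, 0.996 and 0.694 CPM, all below the controls, as were 27.5% of all genes. Rag2-/- mice had 1.28 to 2.03 CPM without and 0.276 to 4.42 CPM with stroke, and NSG mice 0.584 to 7.16 and 2.30 to 5.01 CPM. The log2 fold change was -3.61 (SE 0.81) with acute and -1.54 (SE 0.58) with delayed tacrolimus, and -3.39 (SE 0.84) and -1.33 (SE 0.63) without replicate 3.

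Hippocampus markers moved with Lhx9. The 7 markers, among them the granule cell factor Prox1, summed to 31.0, 31.4 and 31.5 CPM in the 3 acute tacrolimus libraries and to 28.9 and 32.9 CPM in delayed 3_4 and Rag2-/- stroke 4m_4, the 5 lowest sums of the series. They summed to 73.5 to 143 CPM in non-stroked WT mice and reached 283 CPM in NSG stroke 1f_2. The Spearman rho of Lhx9 with this sum was 0.79 over the 29 libraries, as a description, and 0.13 with the cortex markers. Its closest genes were Dpf3 (rho 0.85), Shisa6 (0.85) and Stk32b (0.85). The part of the hippocampus markers in the Lhx9 difference was not tested.

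**Figure D4:**
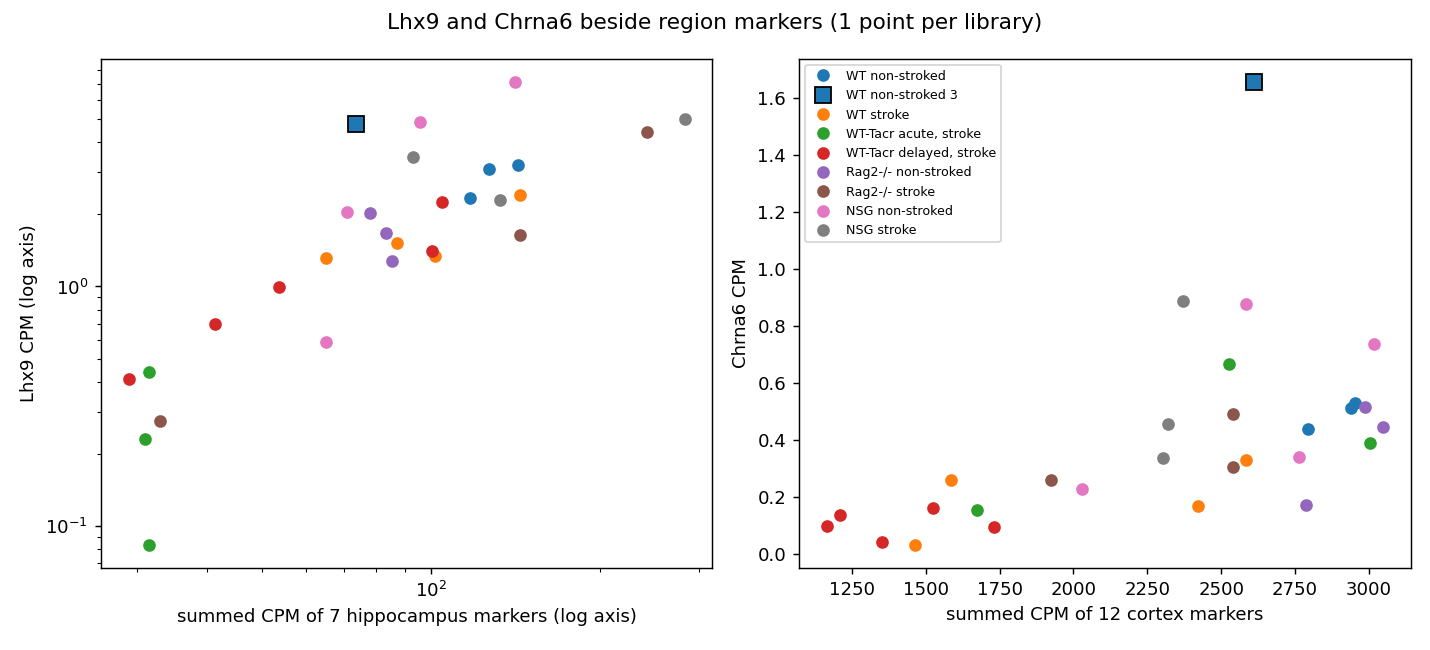
CPM of Lhx9 against the summed CPM of 7 hippocampus markers (left, log axes) and CPM of Chrna6 against the summed CPM of 12 cortex markers (right, linear axes), 1 point per library coloured by group. The 3 acute tacrolimus libraries lie at the lower left for Lhx9, at 31.0 to 31.5 CPM of markers, and the 5 delayed tacrolimus libraries lie at the lower left for Chrna6.

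Irx3 and Lhx1 were also lowest with acute tacrolimus. Irx3 had 1, 1 and 0 counts there, against 3 to 8 after stroke without treatment and 4 to 13 with delayed tacrolimus. These values lay below all non-stroked WT libraries, as did those of Lhx9 and of 9.20% of all genes. The log2 fold change of Irx3 was -4.68 (SE 1.09) and, without replicate 3, -3.62 (SE 1.04). Lhx1 did not overlap the non-stroked WT libraries either, at 0 against 2, 80, 1 and 10 counts. Its separation from the lowest of them is within counting error, since a 0 allows up to 3 counts. Lhx1 was at 0 in all 3 acute libraries. At 3 counts per library this allows up to 0.105 CPM on average, so Lhx1 was at least 6.06-fold lower than the mean of the 4 non-stroked WT libraries (0.634 ± 1.03 CPM, SD), and that mean was 0.119 ± 0.135 CPM without replicate 3 (SD, n = 3). Lhx1 had 0, 3, 2 and 3 counts after stroke without treatment and 6, 3, 3, 5 and 3 with delayed tacrolimus. Lhx1, Lhx9 and Irx3 varied together, with Spearman rho of 0.55 to 0.60 between them over the 29 libraries. Irx5, which lies in the same Iroquois cluster as Irx3, had a rho of 0.71 with it, and the thalamic factor Tcf7l2 had 0.77 with Lhx1. Both Lhx1 and Irx3 were higher where thalamus markers were higher (rho 0.65 and 0.62 with their sum) and where choroid plexus markers were higher (rho 0.59 and 0.46). The 11 choroid plexus markers summed to 5.54 to 26.3 CPM with acute tacrolimus, 19.97 to 904 CPM with delayed tacrolimus and 11.9 to 860 CPM in non-stroked WT mice. The part of the thalamus and choroid plexus markers in the differences was not tested.

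Counting the calls, 6 of the 8 members tested passed for stroke in WT mice, 5 lower (Slc6a4, Tph2, Chrna6, Lhx1 and Irx3) and Th higher. A call is an adjusted p below 0.05 with an absolute log2 fold change above 1 (edgeR), and 7.30% of all genes were called, 0.540% lower and 6.76% higher. Since the members were chosen with results of these contrasts known, nothing is read from their share. Without replicate 3 the members called were Th and Slc6a3, both higher, while 6.67% of all genes were called. Without WT stroke 5_3 they were Slc6a4 and Tph2, without non-stroked WT 1, 4 or 5 the call of Th was lost, with the cohort as a covariate Tph2 alone was called, and in Imm2 samples only 0 were. DESeq2 called Chrna6, Lhx1 and Irx3 lower and Th higher, but neither Slc6a4 nor Tph2. A fit of the compared groups only called Chrna6 and Lhx9, both lower. With acute tacrolimus 4 members were called lower (Slc6a4, Lhx1, Lhx9 and Irx3), where 2.58% of all genes were called and 0.299% lower. Without replicate 3 of the controls Lhx9 and Irx3 remained (1.73% of genes called), as they did without the acute library 1_5, and without the acute library 2_1 no member was called. With the cohort as a covariate 0 members were called for acute tacrolimus, and 0 were in Imm2 samples only, where 1 acute library remains. With delayed tacrolimus 4 were called lower (Slc6a4, Tph2, Chrna6 and Lhx9) and Th higher, where 15.5% of all genes were called, 4.0% lower and 11.5% higher. Without replicate 3 these were Chrna6 lower and Th and Slc6a3 higher (15.2% of genes called), and with the cohort as a covariate Tph2 alone was called. The 3 comparisons share their control samples. DESeq2 did not call Slc6a4 with acute or delayed tacrolimus, nor Tph2 with delayed tacrolimus. Here and below, the share of all genes called is given only for the fits with all samples and without replicate 3. A call lost in any other fit is therefore not read as particular to the members.

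**Figure D5:**
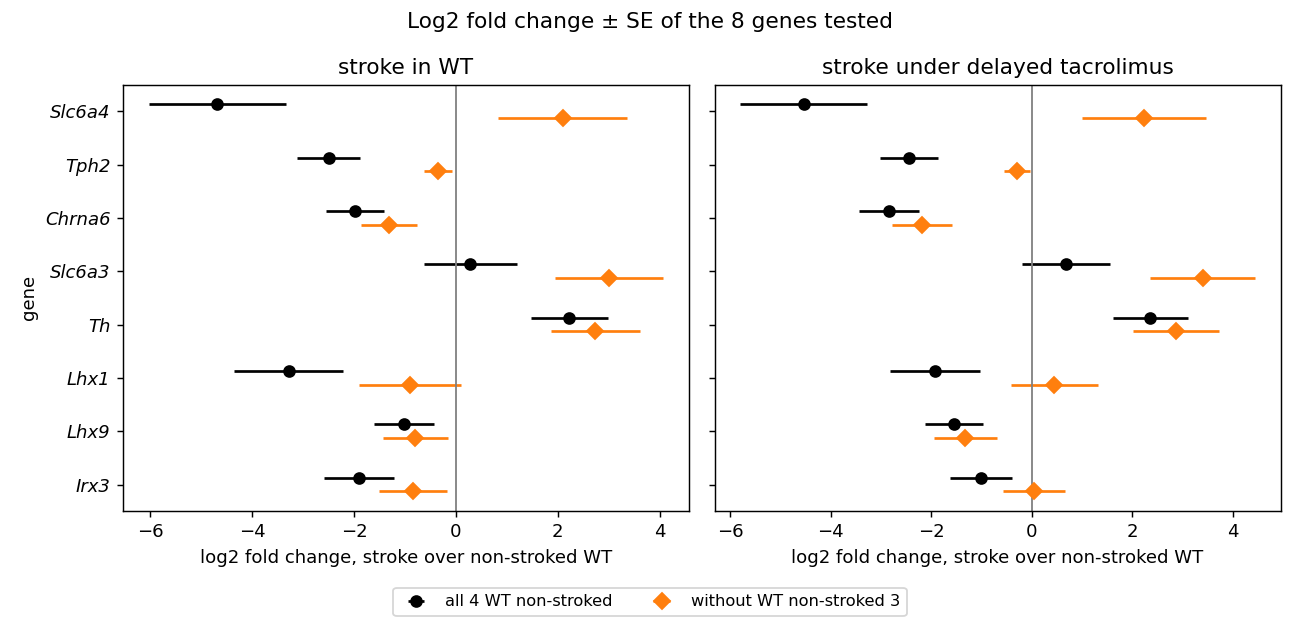
Log2 fold change ± SE of the 8 members that passed the filter, stroke in WT mice (left) and stroke with delayed tacrolimus (right) against non-stroked WT mice, with all 4 controls (circles) and without WT non-stroked 3 (diamonds). Slc6a4 lies at -4.68 with and at 2.10 without that library after stroke in WT mice, while Th and Chrna6 keep their side of 0 in both panels.

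In the immunodeficient strains no member was called after stroke (edgeR). This was 0 of 8 in Rag2-/- mice, where 4.33% of all genes were called, and 0 of 8 in NSG mice, where 5.48% were called. At an unadjusted p below 0.05 the members were likewise 0 in both, against 3691 and 6116 of all 17031 genes. DESeq2 called 0 members in both. Tests of the difference between strains, which rest on replicate 3 too, called 0 members for Rag2-/- and 0 for NSG mice, with 0% and 0.0117% of genes called. At an unadjusted p below 0.05 they gave 4 and 5 members, against 713 and 2167 of all 17031 genes, and DESeq2 gave 0 members in both. For Th the response of NSG mice differed from that of WT mice by -3.88 (SE 1.17) on the log2 scale, and by -4.39 (SE 1.23) without replicate 3, neither of which passed. Without that library 0 members were called in the NSG test of the difference and 0.0353% of all genes were. Between non-stroked strains Slc6a4 and Tph2 were called lower in NSG than in WT mice, where 3.36% of all genes were called and 1.45% lower, and without replicate 3 no member was (3.21% of genes called). Without NSG replicate 1, 2 or 4 Tph2 alone was called. Between non-stroked Rag2-/- and WT mice 0 members were called by edgeR and by DESeq2, and 0.00587% of all genes were called. At an unadjusted p below 0.05 there were 4 members and 349 of all 17031 genes. Without replicate 3 the count of members was again 0 (0.00588% of genes). Lhx9 and Irx3 were lower in non-stroked Rag2-/- mice without overlap, as were 5.41% of all genes.

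Directly between treatments, no member was called for acute tacrolimus against untreated stroke (edgeR and DESeq2), where 0% of all genes were called. An unadjusted p below 0.05 was seen for 2 members and for 2168 of all 17031 genes. Lhx9 (-2.59, SE 0.82) and Irx3 (-2.77, SE 1.26) were lower in the acute group without overlap, as were 3.58% of all genes. For delayed against acute tacrolimus Irx3 was called higher (3.66, SE 1.16), where 5.75% of all genes were called and 5.22% higher, and Irx3 and Lhx1 were higher without overlap, as were 8.81% of genes. For Lhx1 this was 3 to 6 counts against 0, and a 0 allows up to 3 counts. Without acute 5m_1, acute 1_5 or delayed 5_5, 0 members were called.

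Among the other genes of these pathways, of 52 genes on the serotonergic, dopaminergic, noradrenergic and patterning lists, 33 were tested. In WT mice after stroke 5 fell and 0 rose, where 0.540% of all genes were called lower and 6.76% higher. The 5 were Chrnb3 (above), Mab21l2 (log2 fold change -4.50, edgeR adjusted p = 0.00536), Gata3 (-4.39, adjusted p = 0.0384), Pax5 (-2.66, adjusted p = 0.0129) and Irx5 (-2.33, adjusted p = 0.0422). Without replicate 3, only Chrnb3 among these 5 was called, and the log2 fold changes were -0.97 for Mab21l2, 3.92 for Gata3, -0.40 for Pax5 and -1.49 for Irx5. The median log2 fold change of the 33 was -0.58, and -1.14 for the 15 patterning genes, against 0.00 over all genes tested. Without replicate 3 these medians were 0.27 over 32 genes and 0.02 over 14 patterning genes. The median of the listed genes was -0.93 with acute and -0.31 with delayed tacrolimus, and -0.05 and 0.53 without replicate 3. It was 0.43 in Rag2-/- and -0.23 in NSG mice. With acute tacrolimus 2 of the 33 fell, Nkx2-2 (-1.53, SE 0.23, edgeR adjusted p = 0.00055) and Slc18a2 (-3.76, SE 1.11, edgeR adjusted p = 0.0369), and without replicate 3 Slc18a2 had -1.04 (adjusted p = 0.443). Over all genes 0.299% were called lower with acute tacrolimus.

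Nkx2-2, a factor of the ventral neural tube and of oligodendrocyte precursors, had 225 to 286 counts in non-stroked WT mice, and replicate 3, with 265, did not stand apart in this gene. It fell with acute and with delayed tacrolimus (-1.35, SE 0.19, edgeR adjusted p = 5.26e-06), in both without overlap with the controls. Over all genes 9.20% and 27.5% were lower without overlap in these comparisons. After untreated stroke Nkx2-2 was also lower without overlap, as were 13.4% of all genes. Its log2 fold change of -0.90 (SE 0.20, edgeR adjusted p = 0.00212) was under the minimum size for a call. The Nkx2-2 difference did not pass in Rag2-/- mice (-0.50, SE 0.23, edgeR adjusted p = 0.191). For NSG mice it was 0.18 (SE 0.21, edgeR adjusted p = 0.565). With delayed tacrolimus 4 of the 33 fell and 3 rose, where 4.0% of all genes were called lower and 11.5% higher. Those that rose were Slc22a3, a low-affinity monoamine transporter (1.38, SE 0.39, edgeR adjusted p = 0.00418), Slc10a4 (1.88, adjusted p = 0.0263) and Gbx2 (2.66, adjusted p = 0.0418). Of the 4 that fell, Pax5 and Mab21l2 had log2 fold changes of -2.16 and -3.32 with and 0.10 and 0.21 without replicate 3, the other two being Chrnb3 and Nkx2-2. Without replicate 3 Slc22a3 had 1.44, Slc10a4 2.91, Gbx2 3.92, Chrnb3 -2.12 and Nkx2-2 -1.34, and all 5 were still called. The call of Gbx2 was lost without WT replicate 1, 4 or 5 or delayed 3_3, 4_3 or 5_5 (edgeR adjusted p = 0.0505 to 0.142). That of Slc10a4 was lost without WT replicate 1, 4 or 5 or delayed 4_3 (edgeR adjusted p = 0.0602 to 0.082). None of the 7 passed with the cohort as a covariate (edgeR). Slc22a3 was also higher in non-stroked NSG than WT mice (1.55, SE 0.40, edgeR adjusted p = 0.0114), as were Gbx2 (4.06, edgeR adjusted p = 0.00693) and Tph1, the paralogue of Tph2 (1.57, SE 0.47, edgeR adjusted p = 0.0319). Tph1 had 71, 21, 11 and 20 counts in the NSG and 3 to 17 in the WT libraries, and without NSG replicate 1 its difference was 0.72 (adjusted p = 0.329). The call of Tph1 was also lost without WT replicate 1, 4 or 5, at adjusted p = 0.0583 to 0.121. After stroke in Rag2-/- and NSG mice 0 of the 33 were called by edgeR, and DESeq2 called 2 and 0. An unadjusted p below 0.05 was seen for 7 and 2 of them, against 3691 and 6116 of all 17031 genes. Over all genes edgeR called 4.33% and 5.48%.

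Per kilobase of exon, Th was the most abundant of the 10 members in the median of the 28 libraries other than replicate 3 (0.859 RPKM), followed by Tph2 (0.382), Lhx9 (0.174) and Chrna6 (0.114). Irx3 had 0.0763 RPKM, Slc6a3 0.0350, Lhx1 0.0209, Slc6a4 0.0143 and En1 0.00965 RPKM, and Barhl1 was at 0. In replicate 3 the order was Tph2, Slc6a4, Th (1.76 RPKM), En1 (0.726), Irx3 (0.620) and Chrna6 (0.571), and Slc6a4 had thus moved from the eighth to the second place.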

How the data were processed

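Poly(A) RNA from cortical tissue was sequenced with a stranded kit, and the authors deposited raw read counts per gene, 1 table per library, made by their core facility. The aligner, genome build and use of strand in counting are not given in the sources used here. Values were used as deposited. A single fit of all 29 libraries in 8 groups was made with edgeR 4.0.16 in R 4.3.3 (TMM scaling, filterByExpr, quasi-likelihood test), which kept 17031 of 25746 genes, 22092 of which had a count. P-values were adjusted by Benjamini-Hochberg over all genes tested, and a gene was called where the adjusted p was under 0.05 and the log2 fold change exceeded 1 in size. SE is the absolute log2 fold change divided by the square root of F. CPM used TMM-adjusted library sizes, and RPKM divided these by the union of exons in GENCODE M21. DESeq2 1.42.0 was an alternative. On simulated counts for stroke in WT mice, 193 of 200 changed genes were recovered with 2 false calls among 16815 genes. The changed genes had a mean above 1 CPM and the same fold change up or down, and no library was made to stand apart. The recovery therefore does not cover members at lower levels or the effect of a single library.

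The members and gene lists were chosen with earlier results of these data and the study's figures known. All members are described. From the other lists, the called genes with the largest differences per stroke comparison, partners and paralogues of members, region markers and, per member, the 3 genes with the highest Spearman rho were named. The labels give replicate codes and do not say that libraries came from separate animals, so p-values measure only the spread between these samples, which may in part be technical. Intervals from 3 counts cover counting error only. RefSeq sequences were matched by symbol. Figures were drawn with Python 3.11.15. The alternatives were another scaling (RLE), no filter or a mean of at least 1 CPM, DESeq2, no minimum fold, the cohort as a covariate, the compared groups only, Imm2 samples only, a replicate block and leaving out each library.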

Additional observations from a re-analysis of the deposited data

Results flagged for a closer look

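A library was singled out where, in a group of 4 or 5, the gap between the highest or lowest level and its neighbour took up more of the group's range than Dixon's 95% limit allows. Since the genes were chosen with these levels known, this is a description and not a test. Of 39 groups over the 10 genes, 17 were singled out, and although chance flags about 1 in 20 independent groups, the count is not read against it, since 8 of the 17 are a single library, replicate 3 of the non-stroked WT mice. Its levels were 13.7 CPM of Slc6a4, 19.6 of Tph2, 1.66 of Chrna6, 1.36 of Slc6a3, 4.16 of Th, 1.90 of En1, 2.18 of Lhx1 and 2.04 CPM of Barhl1.

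WT stroke 5_3 stood apart with 0.397 CPM of Slc6a4 and 1.22 CPM of Slc6a3, and WT stroke 5_2 with 1.43 CPM of Tph2. NSG non-stroked 3 stood apart with 9.61 CPM of Th and 0.765 CPM of Slc6a3, and NSG non-stroked 1 with 0.819 CPM of Irx3. The remaining values rest on few reads. They are delayed tacrolimus 4_3 with 0.0453 CPM of En1 (1 count), WT stroke 2m_3 with 0 CPM of Lhx1 against 2 to 3 counts in its group, and NSG non-stroked 2 with 0 CPM of Barhl1 against 1 count in its group.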

How the results depend on the processing

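Among the counts of genes called, 198 values under alternatives stayed within 1.5 times the first value and 64 moved. For single genes 1107 values kept their direction and call, and 59 values without a test moved beyond the spread. Of the differences called at first, 73 values lost the call and 7 changed sign. The cause was not tested except where fewer genes or samples entered.

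Members called after stroke in WT mice (6) became 2 at a mean of at least 1 CPM, 1 with the cohort as a covariate, 2 with the compared groups only, 0 in Imm2 samples only and 2 to 5 with 1 library left out. With acute tacrolimus (4) they became 2, 1 (compared groups only), 0 (cohort), 0 (Imm2 only, where 1 acute sample remains) and 0 to 5. With delayed tacrolimus (5) they became 3 at 1 CPM, 1 with the cohort, 3 by DESeq2 and 3 to 6. Delayed against acute tacrolimus (1) gave 0 at 1 CPM, with the cohort and with the compared groups only, 4 by DESeq2 and 0 to 3 with 1 library left out. It gave 0 without acute 5m_1, acute 1_5 or delayed 5_5. Non-stroked NSG against WT (2) gave 1 at 1 CPM, 0 by DESeq2, 0 with the compared groups only, 1 in Imm2 samples and 0 to 2. Without WT stroke 5_3, stroke in WT mice left Slc6a4 and Tph2. The share of all genes called under each of these alternatives is not given, so the counts are not read as particular to the members.

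Of the other listed genes, those called after stroke in WT mice (5) became 9 with no minimum fold, 9 with no filter, 1 at 1 CPM, 2 with the cohort, 3 by DESeq2, 1 with the compared groups only, 1 in Imm2 samples and 2 to 6. With acute tacrolimus (2) they became 1 with the cohort, 6 by DESeq2, 1 with the compared groups only, 0 in Imm2 samples and 1 to 4. With delayed tacrolimus (7) they became 13 with no minimum fold, 4 at 1 CPM, 0 with the cohort and 5 to 10. In Rag2-/- mice (0) they became 1 with no minimum fold, 2 by DESeq2 and 2 with the compared groups only. In NSG mice (0) they became 1 with no minimum fold, 2 with no filter, 1 in Imm2 samples and 0 to 1.

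Among the differences called with all samples, 7 log2 fold changes changed sign without replicate 3 of the non-stroked WT mice. Differences that were not called changed sign as well. Examples are Slc6a3 with acute tacrolimus (-0.83 to 1.89) and Lhx1 with delayed tacrolimus (-1.93 to 0.45). With 1 library left out in turn, Slc6a4 ran from -6.27 to 2.10 after stroke, from -6.30 to 0.89 with acute and from -4.96 to 2.23 with delayed tacrolimus, and from -5.85 to 1.98 between non-stroked NSG and WT mice. Gata3 ran from -4.91 to 3.92 after stroke, and Mab21l2 from -3.72 to 0.21 and Pax5 from -2.52 to 0.10 with delayed tacrolimus. Each upper value is that without replicate 3.

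Same-numbered deviations from the group mean correlated at 0.107 for Rag2-/- and WT mice and at -0.233, 0.118 and -0.154 for NSG and WT mice. Rag2-/- and WT mice share only replicate numbers 1 and 4, whose values are equal by construction. So few values cannot decide whether replicate numbers pair the samples. With a replicate block 0 members were called between non-stroked NSG and WT mice, as were 0 in the same samples without the block, and 0 between Rag2-/- and WT mice. Members at a few counts per library limit what these depths can show.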
